A study of Mus musculus with 4 samples.

Results

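Cxcl12, Kitl, Cxcr4, Kit and Ackr3 encode 2 ligands, their main receptors and a scavenging receptor. They were taken by name, 5 of the 49671 gene symbols in the unique molecular identifier (UMI) tables of 4 mouse olfactory epithelium libraries. The series asked about neurons that shape the olfactory map in early life. Cells of outbred CD-1 mice at postnatal day 0, 3, 7 and 21 (P0, P3, P7 and P21) were freed with papain, sorted and run as droplet single-cell libraries, 1 library per age. No genotype or treatment other than age separated the libraries, and the labels do not give the number or sex of the mice or the gate of the sort. Age and library therefore cannot be told apart. All 5 genes had UMIs in all 4 libraries, with 2651 UMIs for Cxcl12, 832 for Cxcr4, 728 for Kitl, 479 for Kit and 172 for Ackr3.

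CXCL12 is a secreted chemokine that binds the G protein-coupled receptor CXCR4 and guides migrating and proliferating cells, in bone marrow and in the developing nervous system. ACKR3 also binds CXCL12 but signals little through G proteins and removes the chemokine from the extracellular space. KIT is a receptor tyrosine kinase, and KITL (stem cell factor), made in membrane-bound and shed forms, is its ligand. The olfactory epithelium renews its sensory neurons for life: globose basal cells divide and pass through Neurog1 and Neurod1 stages to immature and then mature olfactory sensory neurons (OSNs). Horizontal basal cells lie beneath them on the basal lamina as a reserve, and the lamina propria below holds stromal fibroblasts, vessels and ensheathing glia.

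In mm10, Cxcl12 lies at chr6:117168535-117181367 (plus strand), Kitl at chr10:100015630-100100416 (plus), Cxcr4 at chr1:128588199-128592293 (minus), Kit at chr5:75574916-75656722 (plus) and Ackr3 at chr1:90203980-90216751 (plus). The promoters of the chemokine and its receptor are shown because the pair was read in separate cell types. Each sequence holds the 250 bases before the RefSeq start site (GRCm38.p6), at chr6:117168285-117168534 (plus) for Cxcl12 and chr1:128592300-128592549 (minus) for Cxcr4, and capitals mark GGGCGG (the GC box) and TATAAA (the TATA box) on either strand.
Cxcl12: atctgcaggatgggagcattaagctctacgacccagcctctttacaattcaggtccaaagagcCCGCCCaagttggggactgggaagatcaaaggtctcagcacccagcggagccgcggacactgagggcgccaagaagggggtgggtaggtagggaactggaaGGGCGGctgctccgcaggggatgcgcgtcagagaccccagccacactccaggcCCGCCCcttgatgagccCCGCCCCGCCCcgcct
Cxcr4: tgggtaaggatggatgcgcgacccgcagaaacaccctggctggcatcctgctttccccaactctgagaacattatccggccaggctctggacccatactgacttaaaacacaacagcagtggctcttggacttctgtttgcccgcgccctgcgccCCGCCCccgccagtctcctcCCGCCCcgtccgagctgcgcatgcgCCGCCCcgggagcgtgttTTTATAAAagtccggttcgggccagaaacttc
Cxcl12 held 5 GC boxes and no TATA box, and Cxcr4 held 3 GC boxes and 2 overlapping TATA matches on opposite strands beside its start site. Among all 32851 RefSeq promoter windows of 250 bases, 32.7% held a GC box and 12.4% a TATA box. The letters CANNTG, the E-box bound by basic helix-loop-helix factors such as NEUROG1, occurred in none of the 5 members' windows, against 66.2% of all windows. GC content was 64.4% for Cxcl12, 61.2% for Cxcr4, 54.0% for Ackr3, 70.8% for Kit and 69.2% for Kitl, all above the median window at 52.4%. These matches describe letters in the window and nothing about binding.

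After a cell filter, the libraries held 2691, 3220, 1785 and 1413 cells in age order, with a median of 3227, 4982, 4682 and 4409 UMIs per cell. P0 and P3 shared 68 cell barcodes, and the other pairs shared 1 to 9. Cells were placed in 14 gates by marker panels that hold none of the 5 genes, and 2.90% to 12.7% of a library fell in no gate. The library titles name OSNs, yet basal, supporting, stromal, vascular and blood cells were present in all 4. Levels of panel genes, which the gating itself used, show the scale of each gate: Hes6 was at 2492 to 3175 CPM (UMIs of a gene per 1000000 UMIs of the sum) in the globose basal gate, Neurod1 at 805 to 1322 CPM in late precursors, Omp at 2863 to 5955 CPM in mature OSNs, Krt5 at 627 to 1292 CPM in horizontal basal cells and Col1a1 at 3467 to 5107 CPM in stromal cells. Stromal cells numbered 151, 331, 100 and 9 in age order, so P21 values from that gate rest on 9 cells. Levels below are UMIs summed over a gate in 1 library, in CPM, for sums of at least 20 cells unless stated, and 95% intervals cover counting error only. Fewer expressing cells and less RNA per cell cannot be told apart in such sums.

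**Figure D1:**
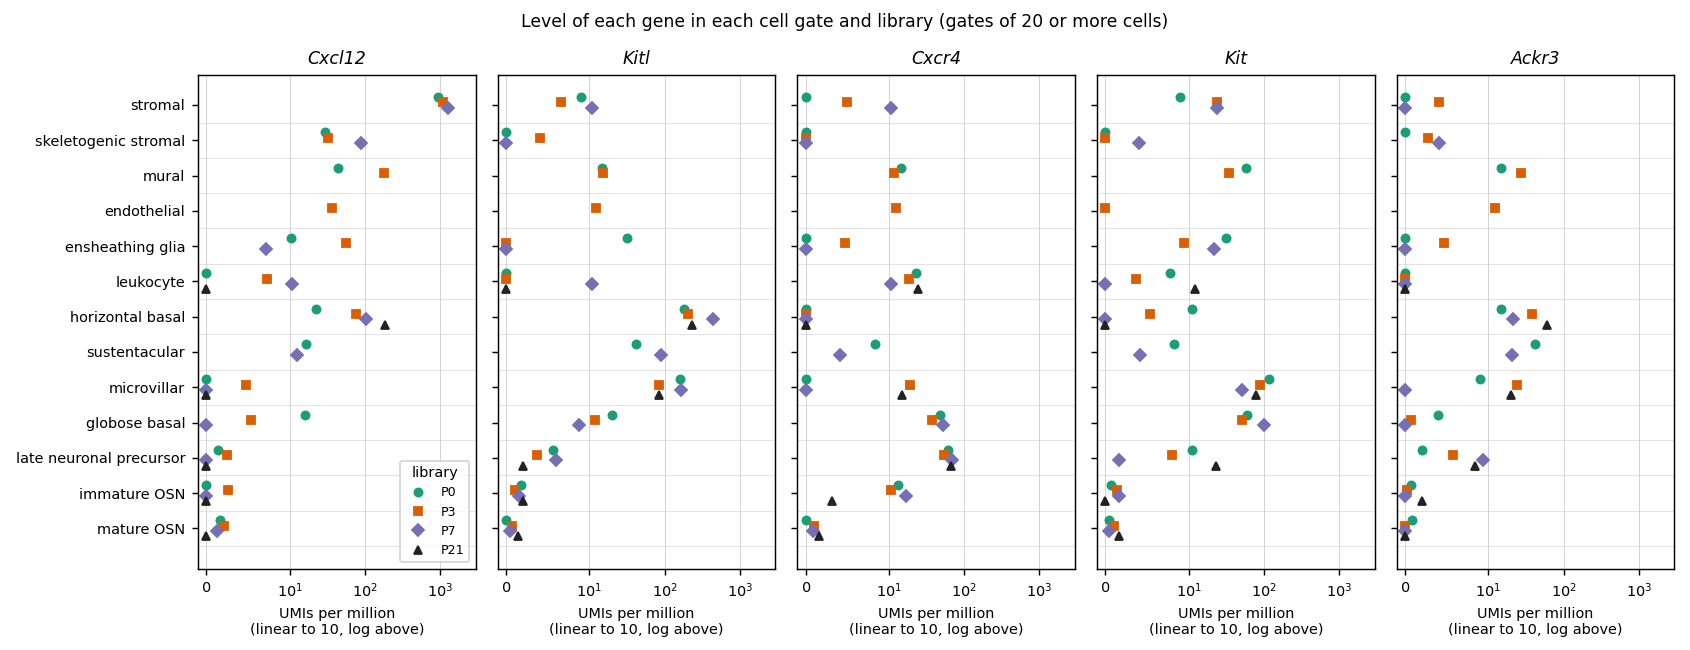
Level of each gene in CPM (x axis, linear to 10 CPM and logarithmic above) in 13 cell gates (y axis), 1 point per library with at least 20 cells in the gate, coloured by age. Cxcl12 was at 940 to 1286 CPM in stromal cells, Kitl peaked in horizontal basal and microvillar cells, Cxcr4 in late precursors and globose basal cells, and Kit in microvillar and globose basal cells.

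Cxcl12, the chemokine, was highest in stromal cells. In the stromal gate it stood at 940.3 CPM at P0 (95% interval 839 to 1050), 1111 CPM at P3 and 1286 CPM at P7 (1173 to 1405), or 1112 ± 173 CPM (SD, n = 3 libraries). The 9 stromal cells of P21 held 16 UMIs, or 842 CPM. No sum of any other gate with at least 20 cells reached 200 CPM, so the stromal gate overlapped none of them. The 8 mural markers summed to 6176 to 8152 CPM in stromal cells of P0 to P7 and to 17652 to 23162 CPM in mural cells, so the gates share these genes in part. Stromal cells of P0, P3 and P7 with at least 1 Cxcl12 UMI made up 57.1%, 56.6% and 71.3% after thinning every cell to 1500 UMIs, and 58.3%, 68.6% and 81.0% before. The thinned share in mature OSNs, read as the background of free RNA, was 0.391%, 0.203%, 0.231% and 0% in age order. Median depth at P0 was 2093 UMIs in stromal cells and 4572 UMIs in mature OSNs. Stromal cells with Apod, which encodes an apolipoprotein made by fibroblasts, had Cxcl12 levels of 906, 1172 and 1247 CPM from P0 to P7, and those without it 999.5, 923 and 1422 CPM, so the order differed between libraries.

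Below the stromal gate came mural cells, at 43.7 CPM (P0) and 181 CPM (P3) of Cxcl12, then horizontal basal cells at 22.3, 75.1, 105 and 187 CPM from P0 to P21, and skeletogenic stromal cells at 29.9, 32.5 and 89.4 CPM from P0 to P7. The ranges of these 3 gates overlapped, and their order is not resolved. Ensheathing glia held 10.4, 56.3 and 7.12 CPM and endothelial cells 36.9 CPM at P3 from 3 UMIs. In the neuronal gates few Cxcl12 UMIs were seen, at 0 to 2.48 CPM in late precursors, 0 to 2.55 CPM in immature OSNs and 0 to 2.08 CPM in mature OSNs. Globose basal cells held 16.0 CPM at P0 from 4 UMIs (4.35 to 40.9), above the mature OSNs of that library at 1.69 CPM (0.461 to 4.33), and 5.30 and 0 CPM at P3 and P7. Microvillar cells gave 1 Cxcl12 UMI in all 4 libraries together.

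Differences between gates were tested by edgeR's quasi-likelihood test over 9299 genes with the library as a term, and p-values were adjusted by the Benjamini-Hochberg method over all of them. Precursors here are globose basal cells and late precursors summed. Cxcl12 was 404-fold higher in stromal cells than in precursors, a log2 difference of 8.66 (SE 0.36, edgeR adjusted p = 8.21e-24, higher in 3 of 3 libraries). It was 14.1-fold higher in stromal than in horizontal basal cells (log2 3.81, SE 0.30, edgeR adjusted p = 4.09e-14, 3 of 3 libraries). Against horizontal basal cells, precursors were 28.7-fold lower (log2 -4.84, SE 0.44, edgeR adjusted p = 8.78e-13, lower in 4 of 4 libraries). In a comparison added later, mural cells were 8.24-fold below stromal cells (log2 -3.04, SE 0.40, edgeR adjusted p = 2.10e-07, 2 of 2 libraries). Mural against stromal was also the comparison with the fewest calls among all genes, 7.26%, and Cxcl12 was the 1 member of 5 called in it. Between precursors and mature OSNs Cxcl12 did not pass (log2 1.31, SE 0.74, edgeR adjusted p = 0.116, higher in 3 of 4 libraries).

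Kitl, the KIT ligand, came from epithelial cells other than neurons. Horizontal basal cells held 182 CPM at P0 (49 UMIs), 205 CPM at P3 (191 UMIs), 437 CPM at P7 (146 UMIs) and 231 CPM at P21 (58 UMIs), or 263 ± 117 CPM (SD, n = 4 libraries). P7 stood apart as the highest library, and every library was above 180 CPM. The next gate was the microvillar gate, made of non-neuronal cells that include ionocyte-like and tuft-like types, with 161, 85.4, 164 and 84.5 CPM in age order. It was followed by sustentacular cells, the supporting cells of the epithelium, with 41.2 CPM at P0 and 90.6 CPM at P7. The microvillar and sustentacular ranges overlapped, while every horizontal basal library lay above both. Globose basal cells held 8.73 to 19.9 CPM, late precursors 2.08 to 5.93 CPM and mature OSNs 0 to 1.39 CPM. Stromal cells, the main source of Cxcl12, held 6.60 to 10.6 CPM of Kitl.

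Kitl was 35.8-fold lower in precursors than in horizontal basal cells (log2 -5.16, SE 0.24, edgeR adjusted p = 9.59e-22, lower in 4 of 4 libraries). Stromal cells were 31.5-fold below horizontal basal cells (log2 -4.98, SE 0.34, edgeR adjusted p = 3.90e-16, 3 of 3 libraries). The ligands thus differed in opposite directions between these gates, Cxcl12 higher in stromal and Kitl higher in horizontal basal cells. Sustentacular cells exceeded precursors 7.68-fold for Kitl (log2 2.94, SE 0.48, edgeR adjusted p = 3.06e-06, 2 of 2 libraries), a call lost without P7 (adjusted p = 0.106). Within the neuronal lineage the low Kitl level fell further: precursors exceeded mature OSNs 7.27-fold (log2 2.86, SE 0.47, edgeR adjusted p = 9.76e-07, 4 of 4 libraries).

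**Figure D2:**
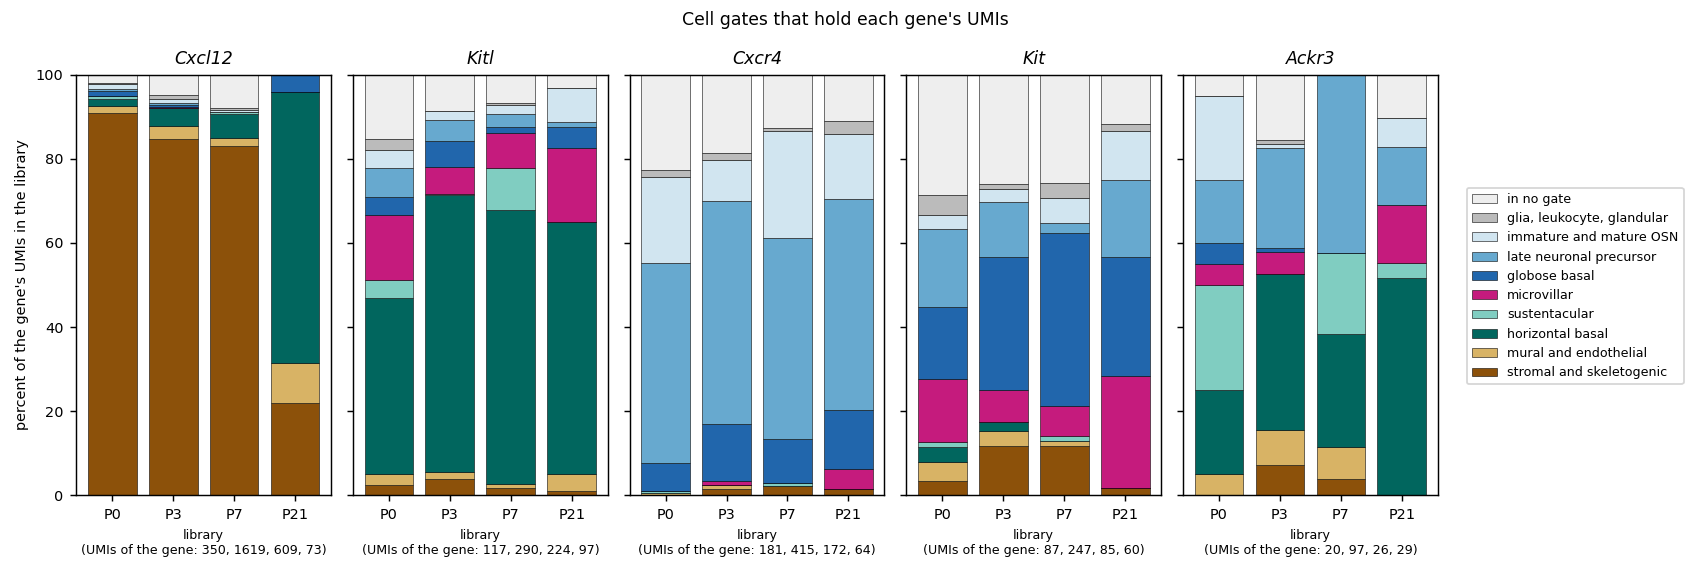
Percent of each gene's UMIs (y axis) that came from each cell gate, as stacked bars, 1 bar per library in age order. Stromal cells gave 90.0% of Cxcl12 UMIs at P0 and 21.9% at P21, where horizontal basal cells gave 64.4%, whereas late precursors gave 47.5% to 53.0% of Cxcr4 UMIs in every library.

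Cxcr4, the signalling receptor of CXCL12, was highest in neuronal precursors. Before thinning, its level in the summed precursors ranged from 49.8 CPM at P3 to 65.6 CPM at P7. P7 was above P3 beyond counting error, at a ratio of 1.32 (counting interval 1.04 to 1.66). The P21 to P0 ratio given below was higher in thinned cells. Late precursors held 59.9, 54.6, 69.4 and 66.7 CPM in age order. Globose basal cells held 47.9, 37.1 and 52.4 CPM from P0 to P7, and 41.5 CPM in the 16 cells of P21. The summed precursors averaged 58.1 ± 6.46 CPM (SD, n = 4 libraries). Globose basal and late precursor cells were not separated by the test (log2 -0.51, SE 0.29, edgeR adjusted p = 0.200, lower in globose basal cells in 3 of 3 libraries). Cells in no gate held 36.2 to 42.1 CPM, so part of the Cxcr4 UMIs lay outside the marker gates. Such cells include precursors and OSNs set aside because they also showed a non-neuronal panel, and their part was not tested. Leukocytes, which are known to express CXCR4, held 10.7 to 24.2 CPM. The 10 leukocyte markers summed to 18.7 to 44.6 CPM in late precursors, against 18202 to 50283 CPM in leukocytes. Ptprc, which encodes the leukocyte antigen CD45, was at 0 in late precursors of all 4 libraries. A precursor with at least 3 leukocyte markers was placed in no gate, so the gating itself limits these sums. A leukocyte part in the Cxcr4 level was not tested.

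With maturation Cxcr4 fell. Immature OSNs held 13.1, 10.7, 16.7 and 3.14 CPM in age order and mature OSNs 0, 1.04, 0.856 and 1.62 CPM, and no library's value in one gate lay in the range of the next. At P21 the counting intervals overlapped, at 0.647 to 9.17 CPM in immature OSNs (3 UMIs) and 0.653 to 3.35 CPM in mature OSNs (7 UMIs). Precursors were 4.87-fold above immature OSNs (log2 2.29, SE 0.28, edgeR adjusted p = 6.30e-09, 4 of 4 libraries) and 44.4-fold above mature OSNs (log2 5.47, SE 0.39, edgeR adjusted p = 2.16e-15, 4 of 4). Immature OSNs were 9.10-fold above mature OSNs (log2 3.19, SE 0.45, edgeR adjusted p = 1.86e-07, 4 of 4). Cxcr4 was the 1 member of 5 called between immature and mature OSNs, a comparison in which 46.7% of all genes were called. After thinning, 6.84%, 8.79%, 9.45% and 10.6% of late precursors held a Cxcr4 UMI, against 0%, 0.407%, 0% and 0.344% of mature OSNs. Unthinned, the late precursor shares were 15.6%, 28.0%, 30.4% and 22.1%, at median depths of 3299, 6161, 5479 and 6909 UMIs.

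Cxcr4 was low or not detected in the gates that held most of either ligand. Horizontal basal cells had 0 Cxcr4 UMIs of 1787309, which places precursors at least 32.5-fold higher, taking 3 UMIs over that gate (1.68 CPM) as the floor. Skeletogenic stromal cells had 0 of 1085796 UMIs, so precursors were at least 19.7-fold higher. Stromal cells held 0, 4.95 and 10.6 CPM from P0 to P7, 11.2-fold below precursors (log2 -3.48, SE 0.48, edgeR adjusted p = 7.56e-08, lower in 3 of 3 libraries). Against late precursors, microvillar cells were 6.12-fold lower (log2 -2.61, SE 0.51, edgeR adjusted p = 4.08e-05, lower in 4 of 4 libraries).

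Kit marked globose basal cells and microvillar cells. Globose basal cells held 59.8 CPM at P0, 51.7 CPM at P3 and 102 CPM at P7, and the 16 cells of P21 held 78.5 CPM. Microvillar cells held 116, 90.1, 51.7 and 79.5 CPM in age order (84.4 ± 26.8 CPM, SD, n = 4 libraries), a range that overlapped the globose basal one. Mural cells followed at 58.2 CPM (P0) and 34.6 CPM (P3), then stromal cells at 8.96, 23.9 and 24.0 CPM, ensheathing glia at 9.39 to 31.2 CPM and late precursors at 11.1, 7.94, 1.69 and 22.9 CPM. Those 3 lower ranges overlapped each other. Cells in no gate held 24.3 to 40.1 CPM of Kit, and 28.7%, 25.9%, 25.9% and 11.7% of its UMIs in age order. Horizontal basal cells held 11.1 and 5.37 CPM at P0 and P3 and no UMI later, and immature and mature OSNs at most 1.62 CPM. KIT is also known from mast cells and melanocytes: of 7 mast cell markers none had a UMI in microvillar cells of any library, and in globose basal cells at most 1 had, with 1 or 2 UMIs. Of 5 melanocyte markers 1 had a UMI in globose basal cells, at P3. The globose basal panel, of the other gate with high Kit, summed to 641 to 934 CPM in microvillar cells, and its part in their Kit level was not tested.

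Kit was 7.99-fold higher in globose basal cells than in late precursors (log2 3.00, SE 0.43, edgeR adjusted p = 1.89e-07, higher in 3 of 3 libraries), the largest difference of a member between these neighbouring stages. Of the 5 members 2 were called there, against 31.3% of 9982 genes. Ackr3 lay just outside the threshold (log2 -2.46, SE 0.98, edgeR adjusted p = 0.0513, lower in 2 of 3 libraries) and passed under 6 alternatives, with adjusted p from 0.0243 to 0.0497. The other called member was Kitl, 2.85-fold higher in globose basal cells (log2 1.51, SE 0.47, edgeR adjusted p = 0.0105, 3 of 3 libraries), and it did not pass without P3 (adjusted p = 0.354). Microvillar cells were 7.90-fold above late precursors for Kit (log2 2.98, SE 0.44, edgeR adjusted p = 2.26e-07, 4 of 4 libraries) and 21.9-fold above them for Kitl (log2 4.46, SE 0.37, edgeR adjusted p = 3.52e-14, 4 of 4). With Cxcr4, 3 of 5 members were called between microvillar cells and late precursors, against 43.9% of all genes. Precursors were 20.1-fold above mature OSNs for Kit (log2 4.33, SE 0.44, edgeR adjusted p = 1.25e-11, 4 of 4 libraries) and 5.19-fold above horizontal basal cells (log2 2.37, SE 0.54, edgeR adjusted p = 0.000214, 4 of 4). Stromal cells also exceeded horizontal basal cells for Kit (log2 2.18, SE 0.61, edgeR adjusted p = 0.00451, 2 of 3 libraries), but not without P3 (adjusted p = 0.110) or without P7 (adjusted p = 0.0607).

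The microvillar gate joins different cell types, and the ligand and receptor divided differently among them. The 132 cells of the type with Ascl3, Cftr, Foxi1 and Coch held 81.0 CPM of Kit and 129.5 CPM of Kitl. In the 25 cells with Trpm5, Avil and Chat, genes of chemosensory tuft-like cells, Kit stood at 86.2 CPM from 7 UMIs and Kitl had 0 of 81206 UMIs (95% interval 0 to 45.4 CPM). Of these 25 cells 20 came from the P21 library. Within that library, the 34 cells of the first type held 125 CPM of Kitl from 17 UMIs (72.8 to 200.1) and the 20 of the second 0 of 65252 UMIs (0 to 56.5), and these intervals did not overlap. When all cells were clustered, Coch and Ascl3 were among the top genes of a cluster of 230 cells, with Bpifa1 and Reg3g. That cluster was named glandular or secretory, and the cluster named microvillar held 35 cells, with Avil among its top genes.

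Ackr3, the scavenging receptor, was the scarcest of the 5 in UMIs, and its highest levels lay outside the neuronal lineage. Horizontal basal cells held 14.8, 38.6, 20.9 and 59.6 CPM in age order from 4, 36, 7 and 15 UMIs. Sustentacular cells held 41.2 CPM (P0) and 20.6 CPM (P7), mural cells 14.6 and 26.9 CPM (P0 and P3) and microvillar cells 0 to 23.7 CPM, and these 4 ranges overlapped. Late precursors held 2.09 to 9.32 CPM, and stromal cells, the Cxcl12 source, 0, 4.13 and 0 CPM. Leukocytes had 0 of 580134 UMIs (95% interval 0 to 6.36 CPM).

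Precursors were 6.50-fold below horizontal basal cells for Ackr3 (log2 -2.70, SE 0.50, edgeR adjusted p = 1.20e-05, lower in 4 of 4 libraries), and stromal cells 12.9-fold below them (log2 -3.69, SE 0.74, edgeR adjusted p = 9.77e-05, 3 of 3). Sustentacular cells were 7.50-fold above precursors (log2 2.91, SE 0.79, edgeR adjusted p = 0.00315, 2 of 2 libraries), a call lost without P0 (adjusted p = 0.143). Precursors exceeded immature OSNs 7.35-fold (log2 2.88, SE 0.66, edgeR adjusted p = 0.000238, 4 of 4 libraries). They also exceeded mature OSNs (log2 4.07, SE 0.74, edgeR adjusted p = 6.79e-06, 4 of 4), where only 2 Ackr3 UMIs were seen. The receptor that signals and the one that scavenges were thus ordered oppositely in the basal gates: horizontal basal cells had Ackr3 and no Cxcr4 UMI.

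Counted over the 5 members, precursors against horizontal basal cells called all 5, where 58.1% of all genes were called, with Cxcr4 and Kit higher and Cxcl12, Kitl and Ackr3 lower in precursors. Stromal against horizontal basal cells also called 5 of 5, against 32.8% of all genes, but its Cxcr4 call, against 0 UMIs, did not pass without P3 (adjusted p = 0.195) or without P7 (adjusted p = 0.0934). Precursors against mature OSNs called 4 of 5 (68.8% of all genes), and precursors against immature OSNs 4 of 5 (59.6%), with the receptors, Ackr3 and Kitl higher in precursors. Stromal cells against precursors called 2 of 5, Cxcl12 and Cxcr4, against 61.3% of all genes. Sustentacular cells against precursors called 3 of 5 (37.4% of all genes), with Ackr3 and Kitl higher and Cxcr4 lower, the last not called without P7 (adjusted p = 0.139). In several comparisons most genes were called, so a member's call there is close to the background, and the size of the difference is the measurement to read.

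**Figure D3:**
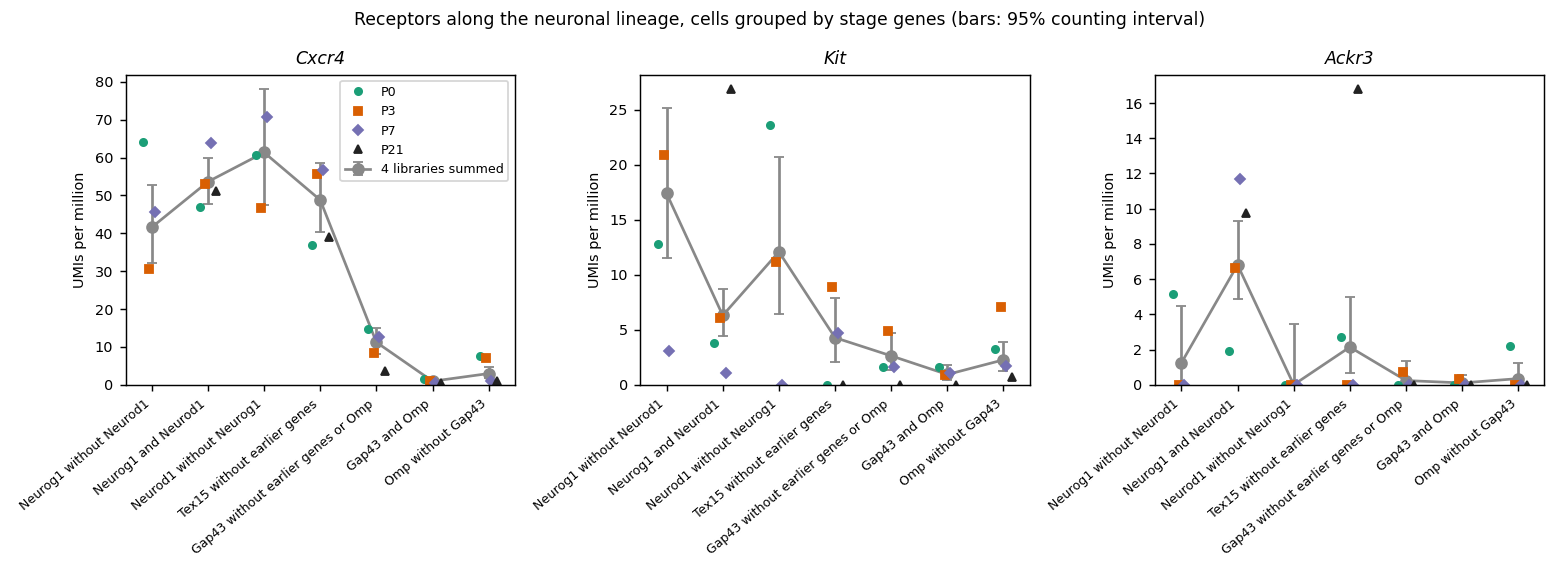
Level in CPM (y axis) of Cxcr4, Kit and Ackr3 in 7 stages of the neuronal lineage (x axis), set by UMIs of Neurog1, Neurod1, Tex15, Gap43 and Omp. Grey marks the 4 libraries summed with a 95% counting interval and coloured points the libraries with at least 20 cells; Summed, Kit was at 17.4 CPM in the Neurog1 stage and at most 12.1 CPM after it, and Cxcr4 lay between 41.6 and 61.4 CPM until Gap43.

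Finer stages, set by single transcription factor and maturation genes, followed the 2 receptors after the globose basal gate. In 327 cells with Neurog1 and no Neurod1, Kit stood at 17.4 CPM over the libraries (95% interval 11.6 to 25.1), and in 976 cells with both at 6.30 CPM (4.44 to 8.68). These intervals did not overlap, and both levels lay below those of the globose basal gate, 51.7 to 102 CPM. By library the first stage held 12.8, 20.9 and 3.04 CPM of Kit from P0 to P7, with 65.8 CPM in the 11 cells of P21, and the second 3.83, 6.03, 1.06 and 26.9 CPM in age order. By point value the first stage was above the second in each library, and P21 was the highest in both. Counts were small: the late precursor gate of P7 held 2 Kit UMIs in all, and the first stage of P21 had 11 cells. Among Neurog1 cells without Neurod1, the 52 with cycling genes held 53.1 CPM of Kit from 20 UMIs and the 275 without held 6.48 CPM from 8 UMIs.

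Cxcr4 kept its level longer. It was at 41.6 CPM (32.2 to 52.8) in Neurog1 cells, 53.6 CPM (47.9 to 59.9) in cells with Neurog1 and Neurod1, 61.4 CPM (47.5 to 78.1) with Neurod1 alone and 48.8 CPM (40.3 to 58.6) in the Tex15 stage. Each of these 4 stages had an interval that overlapped its neighbour's. It then stood at 11.2 CPM (8.25 to 14.9) in 991 cells with Gap43 and no Omp, and at 0.932 CPM in 1776 cells with both. In the Neurog1 and Neurod1 stage, cycling cells held 53.8 CPM of Cxcr4 and other cells 53.2 CPM. Ackr3 had its highest level among these stages there, 6.81 CPM (4.87 to 9.27) from 40 UMIs. When a stage gene needed 2 UMIs, Kit stood at 24.0 CPM in Neurog1 cells, within its main interval. Cxcr4 in the Gap43 stage then stood at 7.87 CPM, below its main interval of 8.25 to 14.9 CPM. Of the stage levels compared with an alternative setting, 13 moved and 11 stayed the same, so the levels depend on how the stages are set.

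Cells holding UMIs of 2 members were counted in the gates where both were seen. Of 245 globose basal cells, 23 held UMIs of both Cxcr4 and Kit, 38 of Cxcr4 alone and 83 of Kit alone, where independence within each library gives 26.8 cells with both. Of 1290 late precursors, 17 held both receptors, 296 Cxcr4 alone and 33 Kit alone, against 12.1 by independence. In 158 microvillar cells, 12 held Kit and its ligand Kitl together, against 13.5. For Cxcr4 and Ackr3, 15 late precursors held both, against 10.1. Both ligands were found in 62 of 538 horizontal basal cells, against 48.98, and in cells thinned to 1500 UMIs in 16 of 490, against 16.3. After the same thinning, Cxcr4 and Kit were together in 0 of 244 globose basal cells, against 1.51, and in 1 of 1250 late precursors, against 1.04. Kit and Kitl were together in 4 of 153 thinned microvillar cells, against 2.65, and Cxcr4 and Ackr3 in 5 of 1250 late precursors, against 1.28. These are counts of cells from 4 libraries, given as a description. Without thinning, deeper cells are more likely to show both genes.

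Between ages there was no replicate, and ratios carry counting error only. Cxcr4 in precursors had a P21 to P0 ratio of 1.01 (95% interval 0.685 to 1.47), or 1.86 in cells thinned to 1500 UMIs. Over all cells the Cxcr4 ratio was 0.475 (0.351 to 0.635), beside precursor numbers of 437 of 2691 cells at P0 and 84 of 1413 at P21. In immature OSNs Cxcr4 stood at 13.1 CPM at P0 (37 UMIs) and 3.14 CPM at P21 (3 UMIs), a ratio of 0.239 (0.0472 to 0.755). On a CPM + 10 scale the log2 change of Cxcr4 was -0.82, short of 2-fold. On that scale 1.23% of the genes counted in that gate were at least 2-fold lower at P21. A lower ratio than that of Cxcr4 was seen for 2.31% of genes.

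Kit in precursors was at 18.4, 19.9, 24.3 and 40.2 CPM from P0 to P21, a P21 to P0 ratio of 2.19 (1.26 to 3.77), and 97.8% of genes had a lower one on the CPM + 10 scale. On this scale Kit's log2 change was 0.82, short of 2-fold, and 1.11% of genes in that gate were at least 2-fold higher at P21. The mix of the gate moved with it: globose basal cells were 39 of 437 precursors at P0 and 16 of 84 at P21, and their part in the ratio was not tested. Within late precursors alone the ratio was 2.06 (0.862 to 4.72). In microvillar cells the ratio was 0.682 (0.308 to 1.54) for Kit and 0.524 (0.254 to 1.08) for Kitl, and both intervals include 1. The mix of that gate moved as well: cells of the Trpm5, Avil and Chat type were 1 of 36 at P0 and 20 of 54 at P21. Within the Ascl3 type the ratio was 0.681 (0.276 to 1.65) for Kit and 0.761 (0.368 to 1.56) for Kitl.

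Cxcl12 over all cells was at 38.1, 91.1, 70.4 and 10.7 CPM, highest at P3 and lowest at P21, with a P21 to P0 ratio of 0.280 (0.215 to 0.361). Of all genes 0.910% had a lower ratio and 1.73% were at least 2-fold lower at P21. Stromal cells in the libraries numbered 151, 331, 100 and 9, and how the sort kept them is not given. Within the stromal gate the steps were 1.18 (1.04 to 1.34) from P0 to P3 and 1.16 (1.04 to 1.29) from P3 to P7. Horizontal basal cells went the other way, from 22.3 CPM at P0 (6 UMIs) to 187 CPM at P21 (47 UMIs), a ratio of 8.40 (3.58 to 24.0), or 13.4 when every gate needed 1 more marker. In this gate 7.82% of genes were at least 2-fold higher at P21, and 99.6% had a lower ratio than Cxcl12. The share of horizontal basal cells with a Cxcl12 UMI was 5.41%, 15.5%, 28.3% and 40.5% in age order, unthinned.

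**Figure D4:**
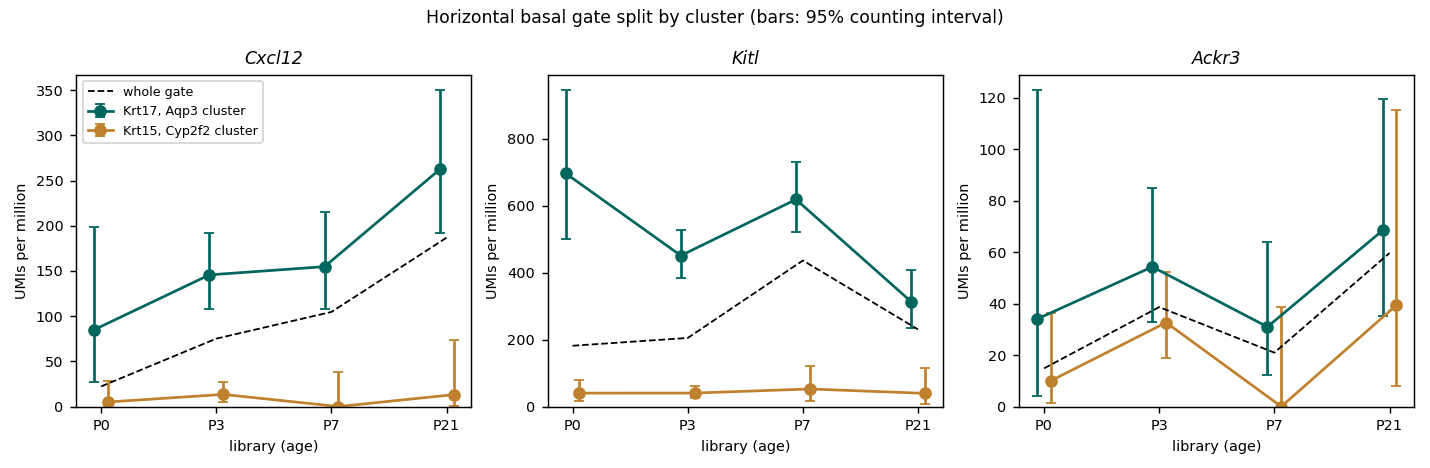
Level in CPM (y axis) of Cxcl12, Kitl and Ackr3 at each age (x axis) in the 2 main clusters of the horizontal basal gate, with 95% counting intervals, and in the whole gate (dashed). Cxcl12 and Kitl lay in the cluster with Krt17 and Aqp3 at every age, at 85.0 to 262 CPM and 314 to 697 CPM, and were low in the cluster with Krt15 and Cyp2f2.

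The horizontal basal gate held 2 main clusters, both with Krt5, Krt14 and Trp63, and the ligands were high in one of them. Clusters were formed from variable genes of these same cells, with the members left out, and this contrast is a description. The cluster led by Krt17 and Aqp3 held 169 CPM of Cxcl12 (142 to 200) and 486 CPM of Kitl (439 to 537) over the libraries. The cluster led by Krt15, F3 and Cyp2f2 held 10.1 CPM of Cxcl12 (4.62 to 19.2) and 41.5 CPM of Kitl (29.2 to 57.2). Ackr3 was at 49.4 CPM (35.3 to 67.2) and 24.7 CPM (15.5 to 37.4), with intervals that overlap narrowly. The Krt17 and Aqp3 cluster made up 26.1%, 43.4%, 79.3% and 77.4% of the gate in age order, so the whole gate mixes its 2 clusters differently at each age. Whether both clusters come from olfactory epithelium was not tested, and a value of the whole gate describes the mix. A further 11 cells of the gate, led by Pcp4 and Lgals7, held 13 Kitl UMIs and 11 Cxcl12 UMIs, the latter all in 1 cell of P3.

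Within the Krt17 and Aqp3 cluster, Cxcl12 stood at 85.0 CPM at P0 (5 UMIs), 146 CPM at P3, 155 CPM at P7 and 262 CPM at P21 (46 UMIs). The P21 to P0 ratio there was 3.09 (1.23 to 9.95), against 8.40 over the whole gate, and P21 over P7 was 1.69 (1.07 to 2.71). Kitl in the same cells went from 697 CPM at P0 and 451 CPM at P3 to 619 CPM at P7 and 314 CPM at P21, a P21 to P0 ratio of 0.450 (0.295 to 0.691). The whole gate gave a Kitl ratio of 1.27, or 2.105 in thinned cells. The gate's interval of 0.852 to 1.90 includes 1, whereas that of the cluster lies below 1. Ackr3 in the cluster had 2 UMIs at P0 and 12 at P21, a ratio of 2.01 (0.448 to 18.5), which includes 1.

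Stromal RNA in the horizontal basal gate was measured beside its Cxcl12. The 10 stromal markers summed to 512, 770, 209 and 350 CPM there, against 14632 to 52911 CPM in the stromal gate, and Dpt was at 0 in all 4 libraries. For each 100 UMIs of these markers there were 4.35, 9.76, 50 and 53.4 Cxcl12 UMIs in horizontal basal cells and 6, 7.59, 6.19 and 1.59 in stromal cells. In the Krt17 and Aqp3 cluster the number was 45.5, 62.2, 87.5 and 144, above the stromal gate at every age, whereas in the Krt15 and Cyp2f2 cluster it was 0 to 1.79. At P0 and P3 the ratio of the whole gate was therefore near that of stromal cells, and at P7 and P21 it was above it.

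The genes whose levels ran closest to each member over 41 sums of gate and library were taken by Pearson's r of log2(CPM + 10) among 15502 genes. These sums share libraries and depth, so r is a description. Cxcl12 ran with Fbn2, Sbspon and Nbl1 (r = 0.85 each), Cldn11 and Cygb (0.84 each), of which Fbn2 encodes the matrix protein fibrillin-2. Kitl ran with Dapl1 (0.94), Krt7 and Dsc2 (0.89 each), Six3os1 and Klhdc8a (0.88 each), which include an epithelial keratin and a desmosomal cadherin. Cxcr4 ran with Mfng (0.87), 2610318N02Rik (0.84), Neurog1 (0.81), Gemin6 and Htr3a (0.80 each), where Mfng and Neurog1 also served to set the gates. Kit ran with Phlda1 (0.82), Usp2 (0.75), Dmpk (0.74), Rasgef1a and Isyna1 (0.73 each). Ackr3 ran with Lama5 (0.84), Fmo6 (0.80), Gstm1 (0.79), Epas1 and Hspb1 (0.78 each). Among the members themselves, Ackr3 and Kitl had r = 0.70, Kit and Kitl 0.29, Cxcr4 and Kit 0.29, and Cxcl12 and Cxcr4 -0.33.

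Genes that act with the CXCL12 receptors were followed in a list of 28, of which 25 were tested. Between precursors and mature OSNs, edgeR called 16 of 25 higher and 4 lower in precursors, where 33.6% of all genes were called higher and 35.2% lower. The list's median log2 difference was 1.49, against 0.00 over all genes. Higher were Gnb2 and Gnai2, G protein subunits (390.8 against 10.1 CPM and 116 against 3.95 CPM), Rgs16, a brake on G protein signalling (18.9 against 0.673 CPM), and the chemokine Cxcl14 (188 against 2.102 CPM). Lower were the subunit Gnb1 (194 against 1368 CPM), Plcb3, Arrb2, a beta-arrestin (37.1 against 70.9 CPM), and Cdc42. Between precursors and horizontal basal cells 8 of 25 were higher and 11 lower (7 and 8 by DESeq2), where 28.6% of all genes were higher and 29.5% lower, so the share higher, 32.0%, was close to that of all genes.

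Of 30 genes acting with KIT, 20 were tested, and 7 were higher and 4 lower in precursors than in mature OSNs, with a median log2 of 0.36. Their share higher, 35.0%, was close to the 33.6% of all genes, of which 35.2% were lower. Pik3r1, a regulatory subunit of phosphoinositide 3-kinase (48.9 against 5.05 CPM), Shc1 (17.3 against 4.20 CPM), Dok1 and Lyn were higher, and Spry2, a feedback inhibitor (3.25 against 12.7 CPM), Jak2 and Akt1 were among the lower. Against horizontal basal cells 2 were higher and 11 lower in precursors, with a median log2 of -1.05, where 28.6% of all genes were higher and 29.5% lower.

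Other niche ligands and receptors were listed for context, 30 of each. Of 18 ligands tested, 13 were higher in stromal cells than in precursors and 1 lower, with a median log2 of 4.98 against -0.09 for all genes, of which 28.9% were higher and 32.4% lower. Rspo1, an activator of WNT signalling, stood at 304 CPM in stromal cells and had 1 UMI in precursors, and Fst, Bmp4 and Igf1 stood at 401, 112 and 183 CPM in stromal cells with 1 to 4 UMIs in precursors. Nrg1, a ligand of ERBB receptors, was the one lower (3.12 against 14.7 CPM). Of 27 receptors tested between precursors and mature OSNs, 7 were higher (25.9%, against 33.6% of all genes) and 5 lower (18.5%, against 35.2%). Higher were, among others, Notch1 (71.0 against 0.336 CPM), Erbb2, Fgfr1 and Acvr2b. Lower were Lifr, Il6st, Tgfbr2 and Bmpr2, among others, receptors or receptor subunits for cytokines, TGF-beta and BMPs. Against horizontal basal cells 3 of 27 receptors were higher and 18 lower in precursors, with a median log2 of -2.16, where 28.6% of all genes were higher and 29.5% lower.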

How the data were processed

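Droplet libraries were made with the 10x 3' version 2 chemistry, per the labels' protocols, and Cell Ranger 2.1.1, Seurat and the mm10 build are listed in the submitters' processing notes. The authors deposited 1 table of raw UMI counts per library. Cells with at least 500 genes and at most 10% mitochondrial and 10% haemoglobin UMIs were kept (9109). A cell entered a gate when it held at least 3 different markers of a panel (late precursors 2, immature OSNs 4, mature OSNs 5). A precursor or OSN that also held at least 3 markers of a non-neuronal panel was placed in no gate. So was a non-neuronal cell whose best panels tied. The panels were set by hand, and the scoring rule was chosen after marker counts were seen. The members and gene lists were chosen with earlier results of these data known. Barcodes that libraries share were kept, and removed in an alternative. Doublets were not removed, because Scrublet called only 25, 34, 7 and 0 cells, and an alternative removed the highest scores at 0.8% per 1000 cells.

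UMIs were summed per library and gate (at least 20 cells, gates in at least 2 libraries) and tested with edgeR 4.0.16 in R 4.3.3 after a check on simulated data: TMM, genes kept by filterByExpr, quasi-likelihood test, library as a term, Benjamini-Hochberg adjustment over all genes, threshold 0.05. Gates of the same library come from the same cells' preparation, which is where the pairing comes from. Each library stands for 1 age, and the library term takes out what a library shares across its gates. A p-value therefore measures how differences between gates vary among libraries of different ages, with a spread estimated over all gates. Comparisons of stromal cells with precursors or horizontal basal cells rest on 3 libraries, and those of sustentacular or mural cells on 2. DESeq2 1.42.0 was an alternative. Intervals are exact Poisson, binomial or conditional binomial at 95%. Clusters came from scanpy 1.11.5 (2000 variable genes chosen without the 5 members, 30 components, 15 neighbours, resolution 1.0). For each member the 5 most alike genes were named, with at least 50 UMIs in all. Of each gene list, the 4 largest and 4 smallest called differences were named, and 1 gene and 1 stage set by a marker are not reported here. Comparisons of globose basal, microvillar and mural gates were added after seeing the data. Promoters came from RefSeq, for all 5 members. No sequences of the proteins were used here. Depth was 9192869, 17770838, 8650272 and 6844712 UMIs in age order.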

Additional observations from a re-analysis of the deposited data

How the results depend on the processing

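Of 35 pairs of member and planned comparison, 24 were called, and the same 24 were called by DESeq2, without a replicate block (the library term left out), with doublets or shared barcodes removed, with no cell filter and without P21. With no filter on low counts 26 were called, with clusters in place of gates 25, with 1 more marker in every gate 23, and leaving out 1 library gave 21 to 24. A gate left with 1 sum was assumed to vary like the others. The calls lost were those of Cxcr4 and Kit between stromal and horizontal basal cells, and, without P0 or P7, those of Ackr3, Cxcr4 and Kitl between sustentacular cells and precursors. Cxcl12 passed between precursors and immature OSNs with no filter, without P3 or with clusters, and between precursors and mature OSNs with no filter or without P7.

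Signs turned only where no call was made. For immature against mature OSNs, Cxcl12 read -2.37 to 0.35 leaving out 1 library and 0.045 with 1 more marker, Kit read -0.31 to 0.64 leaving out 1 library and -0.035 with no replicate block, and Ackr3 read -0.21 with clusters (log2). Cxcl12 in microvillar against late precursors read 0.75 by DESeq2 and -2.62 to 0.18 leaving out 1 library, Cxcr4 in mural against stromal cells -0.32 with clusters, and Kit in stromal cells against precursors -0.48 to 0.051 leaving out 1 library. In cells thinned to 1500 UMIs the P21 to P0 ratio of Kitl in horizontal basal cells was 2.105 and that of Cxcr4 in precursors 1.86. The cause was not tested. The Cxcl12 ratio in horizontal basal cells was 5.74 with clusters, which gave no P21 to P0 ratio for Kit and Kitl in microvillar cells, as neither had a UMI there at P0. With P0 at 6 Cxcl12 and 4 Ackr3 UMIs in horizontal basal cells, depth limits both ratios. Along the stages of the neuronal lineage, 13 of the levels compared moved and 11 stayed the same.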
